A study of Homo sapiens with 6 samples.

Results

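The zinc transporters of the SLC30 and SLC39 families, the metal-responsive transcription factor MTF1 and the functional metallothioneins were followed in 6 monoclonal lines of K562. Of 36 genes named by family membership, 35 had a probe set that the platform annotation assigns to them alone, out of 18417 genes tested on the array. The exception was MT1A, which had no such probe set. The 35 were 10 SLC30 genes, 14 SLC39 genes, MTF1 and 10 metallothioneins. For MT2A and SLC39A7, which had several, the probe set was chosen by its mean brightness over the 6 arrays, so levels are given as a description.

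K562 is a human erythroleukemia line from a patient with chronic myeloid leukemia, with erythroid and megakaryocytic features. Each line was 1 clone, and each array held the total RNA of 1 line. All 6 lines had been electroporated and kept in puromycin. Of these, 3 carried the empty expression vector pEF1α (vector lines 1 to 3) and 3 carried pEF1α-Pu.2 (pEF1α-Pu.2 lines 1 to 3), which encodes murine PU.2. PU.2 is a shortened form of the transcription factor PU.1 that lacks an N-terminal stretch and keeps the ETS domain, which binds DNA. Growth medium differs between the sources, an insect medium in the labels and RPMI in the study's methods, and metal levels of the medium were not given in the sources used here. Nothing in the labels ties the clones to separate cultures or days, so p-values measure the spread between these 6 lines.

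Zinc is held in a narrow range inside cells by transport and by binding. SLC30 (ZnT) proteins move zinc out of the cytosol, across the plasma membrane or into vesicles and organelles, and SLC39 (ZIP) proteins move it into the cytosol. Metallothioneins are small cysteine-rich proteins that bind zinc, copper and cadmium. When zinc rises, MTF1 binds metal response elements in the promoters of the metallothionein genes and of SLC30A1. Members of both transporter families also carry manganese, iron or cadmium. Erythroid cells need zinc for carbonic anhydrase and for the heme enzyme ALAD, and zinc transporter levels are known to change as erythroblasts mature.

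Before the results, 1 line has to be singled out. Over all 18417 genes, the root mean square difference on the log2 scale was 0.309 between vector lines 1 and 2, but 0.472 and 0.396 between vector line 3 and these lines. Vector line 3 differed from the pEF1α-Pu.2 lines by 0.384, 0.389 and 0.421. Over the 35 zinc genes it lay at 0.663 and 0.508 from vector lines 1 and 2, and at 0.614, 0.539 and 0.653 from the pEF1α-Pu.2 lines. This distance takes in SLC30A10 and SLC39A8, described below. In them vector line 3 lay 2.36 and 1.40 above the mean of vector lines 1 and 2. The leading results are given with and without vector line 3, but for these genes leaving it out is not independent of their own values. Markers of K562 with a probe set of their own (7 of 8, among them GATA1, TAL1, TFRC and HBE1) all lay at or above the median of all probe sets. Of the markers of T cells, of monocytes and macrophages, and of hepatocytes, 0 of 4 did in each list. Of those of B cells 1 of 3 did, of fibroblasts 1 of 4, and of epithelial cells 2 of 4, with EPCAM at 10.28 to 11.08 over the 6 lines. No marker of these other cell types passed limma between the groups, with or without vector line 3, and 0 had an unadjusted p under 0.05.

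SLC30A4 rose in the pEF1α-Pu.2 lines, and it was the only zinc gene past the test. SLC30A10 and SLC39A8, which both carry manganese, were higher in every pEF1α-Pu.2 line than in any vector line, but passed neither with all 6 lines nor without any line other than vector line 3. They did pass without vector line 3, and with arrays weighted by their fit. The weights were 5.52 for vector line 2, 0.40 for vector line 1 and 0.48 for vector line 3. With them 514 genes were higher and 835 lower over all genes. Neither setting is independent of the values of these lines. The metallothioneins showed no difference past the test in either direction. Of the 35 genes, 1 was higher and 0 were lower at an adjusted p under 0.05 from limma, where 0.147% of all genes were higher and 0.223% lower. With an unadjusted p under 0.05 there were 4 higher genes (3.83% of all genes) and 3 lower ones (5.7%). The same 7 genes were those whose groups did not overlap, 4 higher against 7.02% of all genes and 3 lower against 6.8%. The median log2 fold change of the 35 genes was 0.03, and that of all genes was 0.02.

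The promoter stretches of MT2A, SLC30A1 and SLC30A4 are shown because these genes are a classical MTF1 target, a transporter that MTF1 also controls, and the transporter that rose. They are the 250 bases before the RefSeq start in GRCh38.p14, at chr16:56608334-56608583, plus strand, at chr1:211579162-211579411, minus strand, and at chr15:45522756-45523005, minus strand. Capitals mark the core of the metal response element, TGCNCNC on either strand.
MT2A: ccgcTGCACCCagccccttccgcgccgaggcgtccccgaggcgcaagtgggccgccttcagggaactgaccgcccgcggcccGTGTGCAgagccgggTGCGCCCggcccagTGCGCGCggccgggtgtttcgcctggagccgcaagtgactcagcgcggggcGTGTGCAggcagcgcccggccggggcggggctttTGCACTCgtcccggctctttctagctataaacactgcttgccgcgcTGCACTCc
SLC30A1: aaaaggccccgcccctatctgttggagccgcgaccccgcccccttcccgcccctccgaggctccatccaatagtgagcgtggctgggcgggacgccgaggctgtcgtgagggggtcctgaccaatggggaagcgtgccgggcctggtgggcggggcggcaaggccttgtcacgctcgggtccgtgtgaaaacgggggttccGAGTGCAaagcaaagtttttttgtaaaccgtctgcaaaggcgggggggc
SLC30A4: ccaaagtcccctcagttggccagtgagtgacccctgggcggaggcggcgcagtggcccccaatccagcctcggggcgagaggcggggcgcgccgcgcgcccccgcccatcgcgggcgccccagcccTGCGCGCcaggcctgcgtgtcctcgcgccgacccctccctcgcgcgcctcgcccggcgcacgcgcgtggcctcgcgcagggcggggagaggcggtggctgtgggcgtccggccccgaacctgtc
The core occurred 7 times before MT2A, once before SLC30A1 and once before SLC30A4. The match lay 49 bases before the start of SLC30A1 and 124 bases before that of SLC30A4. Promoters of 27 of the 36 genes were found in the RefSeq table, and 15 of them held the core, against 49.1% of 34943 promoters of the same length. For each gene only the first listed start was searched, whereas the 34943 promoters take in every distinct start listed. All 5 metallothionein promoters found (MT1B, MT1H, MT1X, MT2A and MT4) held it, with 4 to 8 matches each, whereas 5 of 9 SLC30 and 5 of 12 SLC39 promoters did, with at most 3 and 1 matches. The core was not found before the start used for SLC30A10 or for SLC39A8, and other starts of these genes were not searched. The PU.1 consensus GAGGAA was found before 6 of the 27 genes (23.6% of all promoters) on either strand, and in none of the promoters of MT2A, SLC30A1, SLC30A4, SLC30A10 and SLC39A8. AGATAA, a form of the erythroid GATA motif, was searched on both strands and found before 0 of the 27 (9.19% of all promoters). Other forms of that motif, such as AGATAG, were not searched. These are matches of letters in a window, with no measure of binding.

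SLC30A4 encodes ZnT4, which loads zinc into endosomal and secretory vesicles. Vector lines 1, 2 and 3 had log2 values of 4.56, 4.94 and 4.80, and pEF1α-Pu.2 lines 1, 2 and 3 had 7.58, 6.89 and 7.51. All vector lines lay below the median of all probe sets (5.37) and all pEF1α-Pu.2 lines above it, with 1.95 between the nearest lines of the groups. In these bulk samples fewer cells with a transcript and less of it per cell cannot be told apart. The means were 4.77 ± 0.19 and 7.33 ± 0.38 (SD over 3 lines). The difference, on the log2 scale, came to 2.56, with a standard error of 0.20 and a 95% interval of 2.10 to 3.02 (adjusted p = 0.0021 from limma). No background level was used here. The vector values were about as bright as the hepatocyte marker TTR (4.82 to 5.15 over the 6 lines). They were brighter than the hepatocyte markers ALB, APOB and SERPINA1 (2.98 to 4.48). No exact linear fold is therefore given. Vector line 3 lay between the other vector lines here, and leaving it out gave 2.58 (adjusted p = 0.00049). Whichever line was left out, the change stayed between 2.43 and 2.78 with an adjusted p of at most 0.020.

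SLC30A10 is known mainly as a manganese exporter of the plasma membrane. Vector lines 1 and 2 read 6.21 and 6.53 on the log2 scale, vector line 3 read 8.73, and the pEF1α-Pu.2 clones 10.20, 9.52 and 9.65. Vector line 3 thus lay 2.36 above the mean of the other vector lines and 1.07 below the pEF1α-Pu.2 mean, and the groups did not overlap. The log2 fold change was 2.64 with a 95% interval of 1.31 to 3.96 (adjusted p = 0.15 from limma). Without vector line 3 it was 3.42 (adjusted p = 8.9e-05), or 10.7-fold.

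SLC30A1, the zinc exporter of the plasma membrane and an MTF1 target, had a much smaller difference. The vector clones had log2 values of 6.53, 7.02 and 7.17, against 7.30, 7.29 and 7.41 with pEF1α-Pu.2. The groups did not overlap, but only 0.12 separated vector line 3 from the nearest pEF1α-Pu.2 line. The log2 fold change was 0.43 (95% interval 0.03 to 0.82, adjusted p = 0.47 from limma).

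**Figure D1:**
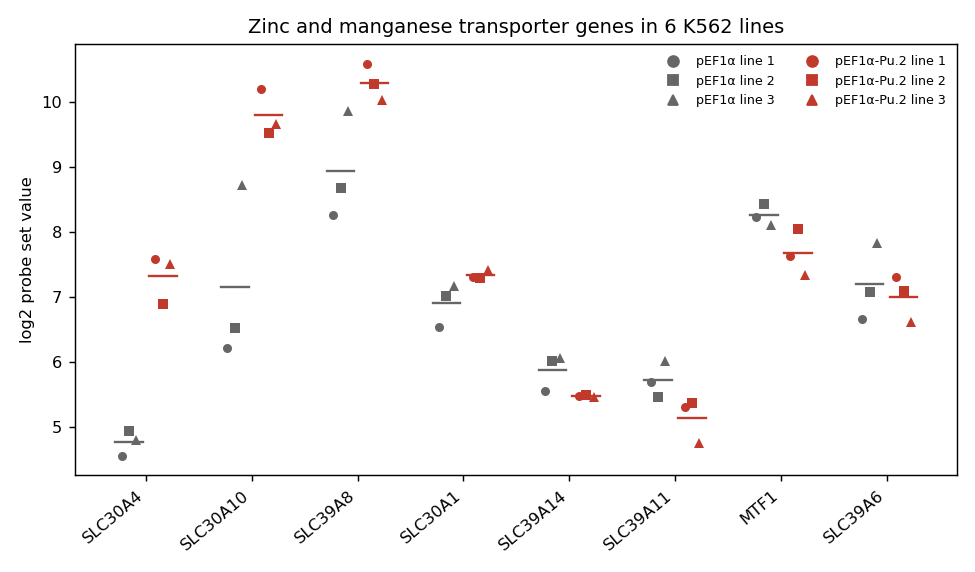
Log2 probe set value (vertical axis) of 7 transporter genes and MTF1 in each of the 6 clones. Each symbol is a clone and each bar the mean of 3, gray for pEF1α and red for pEF1α-Pu.2. All red symbols of SLC30A4 lie at 6.89 or above and all gray ones at 4.94 or below, and the gray triangle of vector line 3 lies between the other gray symbols and the red ones for SLC30A10 (8.73) and SLC39A8 (9.87).

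The remaining SLC30 genes had small differences. SLC30A5 and SLC30A6, which work as a pair in the early secretory pathway, SLC30A7, of the same compartment, and the mitochondrial SLC30A9 had log2 fold changes from -0.27 to 0.04, with adjusted p of 0.73 or higher from limma. All 4 lay at or above the median of all probe sets. SLC30A2, SLC30A3 and SLC30A8, which fill the vesicles of secretory cells, synapses and insulin granules, had log2 fold changes from -0.0009 to 0.08, with 95% intervals that together spanned -0.28 to 0.42. SLC30A3 lay above that median, and SLC30A2 and SLC30A8 below it. Over the 10 SLC30 genes, 8 log2 fold changes were above 0, as were 54.1% of all genes, and the median was 0.04.

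Among the 14 importers of the SLC39 family none passed limma over all genes, while SLC39A8 (higher), SLC39A11 and SLC39A14 (both lower) had an unadjusted p under 0.05. SLC39A8 (ZIP8), which imports zinc, manganese and cadmium, had the largest difference. On the log2 scale it read 8.26, 8.67 and 9.87 in the vector clones, and 10.59, 10.27 and 10.02 with pEF1α-Pu.2. The groups did not overlap, and vector line 3 came within 0.16 of pEF1α-Pu.2 line 3. The log2 fold change was 1.36 with a 95% interval of 0.52 to 2.20 (adjusted p = 0.25 from limma). Without vector line 3 it was 1.83 (adjusted p = 0.0019), or 3.54-fold.

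SLC39A14 (ZIP14), a close relative of SLC39A8 and an importer of zinc, iron and manganese, had lower values with PU.2. Without PU.2 the log2 values were 5.56, 6.02 and 6.05, and with it 5.48, 5.49 and 5.46. The pEF1α-Pu.2 lines were lower without overlap, by 0.07 at the nearest lines, and all 6 values were close to the median of all probe sets. The log2 fold change was -0.40 (95% interval -0.75 to -0.05, adjusted p = 0.44 from limma).

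SLC39A11, the lone human member of the gufA branch, read 5.68, 5.45 and 6.01 (log2) in the vector clones, against 5.30, 5.37 and 4.75 with pEF1α-Pu.2. The groups did not overlap, with 0.08 between the nearest lines, and the log2 fold change was -0.58 (95% interval -1.05 to -0.11, adjusted p = 0.40 from limma). SLC39A6, which pairs with SLC39A10 at the plasma membrane, varied more between clones than between groups. Vector clones 1 to 3 had 6.67, 7.08 and 7.83 (log2), and pEF1α-Pu.2 clones 1 to 3 had 7.31, 7.08 and 6.61. Its log2 fold change was -0.19 (limma, adjusted p = 0.91) and turned to 0.13 without vector line 3 and to 0.0065 without pEF1α-Pu.2 line 3.

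The other SLC39 genes lay close to 0. The plasma membrane importers SLC39A1, SLC39A2 and SLC39A3 and the Golgi transporter SLC39A9 had log2 fold changes from -0.09 to 0.07. A further 6 genes of the LIV-1 branch had changes from -0.15 to 0.16, with adjusted p of 0.85 or higher from limma. They were SLC39A4, the intestinal zinc importer, SLC39A5, SLC39A7, which releases zinc from the endoplasmic reticulum, SLC39A10, SLC39A12 and SLC39A13. SLC39A7 had 3 probe sets with identical values, which were counted once. SLC39A2, SLC39A5, SLC39A12 and SLC39A13 had a mean below that of the median probe set (5.37). The median log2 fold change of the 14 genes was 0.01.

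MTF1 itself was lower without overlap but did not pass the test over all genes. Log2 values of 8.23, 8.43 and 8.10 in the vector clones stood against 7.63, 8.05 and 7.33 with pEF1α-Pu.2, with 0.06 between vector line 3 and pEF1α-Pu.2 line 2. The log2 fold change was -0.58 (95% interval -1.02 to -0.15, adjusted p = 0.35 from limma), and -0.66 without vector line 3 (adjusted p = 0.19).

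Of 10 metallothioneins, none passed limma and 0 had an unadjusted p under 0.05 in either direction. Their log2 fold changes ran from -0.33 for MT1X to 0.26 for MT1G, with a median of 0.11, and the groups overlapped in all 10. The median depended on single clones, at 0.04 without vector line 3 and 0.22 without vector line 1. It was 0.03 when pEF1α-Pu.2 line 2 was left out. The 95% intervals together spanned -0.80 to 0.68. MT2A, the main metallothionein of many human cells, was represented by the brightest of 3 probe sets, and the dimmest went the other way, as given below. The brightest read 8.35, 8.01 and 7.74 (log2) in the vector clones and 8.23, 8.27 and 8.24 with pEF1α-Pu.2. The vector lines thus surrounded the others. The log2 fold change of this brightest probe set was 0.22 (95% interval -0.15 to 0.59, adjusted p = 0.78 from limma). It came to 0.07 without vector line 3 and 0.38 without vector line 1.

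MT1G was lowest in vector line 3, at 4.76, against 5.43 and 5.22 in its group and 5.24, 5.39 and 5.56 with pEF1α-Pu.2. Without that line the differences of MT1G and MT1H, 0.26 and 0.22, came to 0.07 and 0.03. MT1X was 6.14 in vector line 2 and 5.18 to 5.42 in the other 5 lines. MT3, best known from brain, and MT4, from stratified epithelium, had log2 fold changes of 0.13 and 0.04. In vector line 3, 9 of the 10 metallothioneins were below the mean of vector lines 1 and 2, by at most 0.56, and MT4 was 0.06 above it. The MT1 genes are near-identical copies in 1 cluster on chromosome 16, so their probe sets can share signal and are not independent of each other.

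The probe sets annotated to MT2A did not give the same picture. There were 3, and the brighter pair correlated at r = 0.998 over the 6 lines. The dimmest correlated with them at r = -0.08 and -0.10, as a description over 6 lines. It read 7.29, 7.58 and 6.65 (log2) in the vector clones, against 7.03, 6.59 and 5.58 with pEF1α-Pu.2, where only pEF1α-Pu.2 line 3 lay clearly below the rest. The log2 fold change of that probe set was -0.77 (adjusted p = 0.67, tested with limma among 33297 probe sets). It was -1.03 without vector line 3, -1.09 without pEF1α-Pu.2 line 1 and -0.36 without pEF1α-Pu.2 line 3. Genomic positions of the probe sets were not used here. In the numbering of the probe sets, the dimmest falls between those of MT3 and MT1M. The brighter pair falls beyond those of all other metallothioneins, between those of SLC30A9 and BANK1. Both of these genes lie on chromosome 4, whereas MT2A lies on chromosome 16. The brightest may thus not read the MT2A locus, which was not tested, and the MT2A values above and the family summary rest on it. With the mean of the 3 probe sets, MT2A came to -0.13 and the median of the metallothioneins to 0.07.

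**Figure D2:**
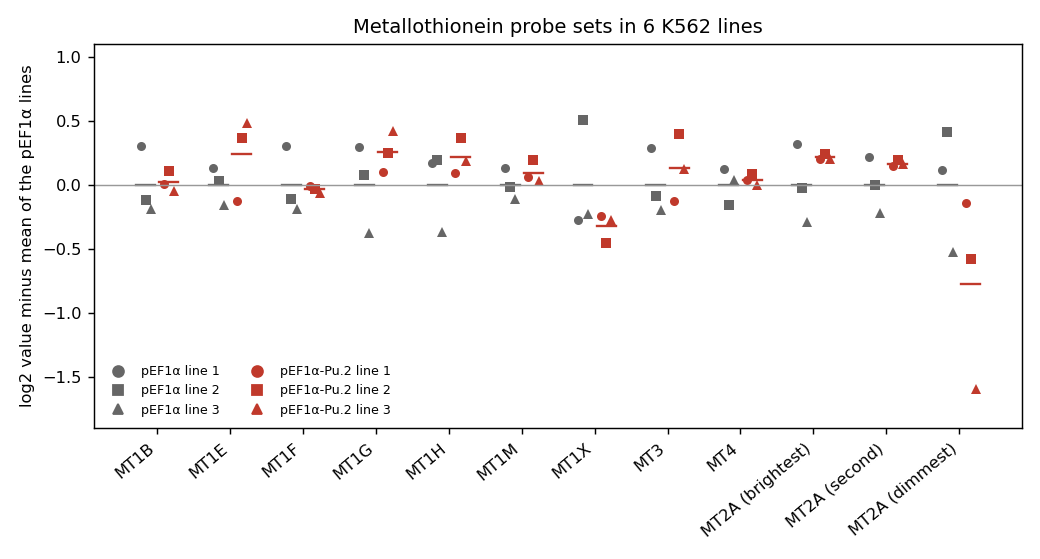
Log2 value of each metallothionein probe set minus its mean in the pEF1α lines (vertical axis), for 9 genes and the 3 probe sets of MT2A. Each symbol is a clone and each bar the mean of 3, gray for pEF1α and red for pEF1α-Pu.2. The groups overlap throughout, and the lowest red triangle is pEF1α-Pu.2 line 3 in the dimmest MT2A probe set (5.58 against a pEF1α mean of 7.17).

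Seen across the families, 3 genes stood away from the rest. Besides SLC30A4, SLC30A10 and SLC39A8, the other 32 genes had log2 fold changes between -0.58 and 0.43, with adjusted p of 0.35 or higher from limma. The median standard error of the 35 genes was 0.16, against 0.15 over all genes, and that of SLC30A10 was 0.58. With 3 lines in each group an exact permutation test cannot go below p = 0.1, and the number of arrays limits the precision.

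**Figure D3:**
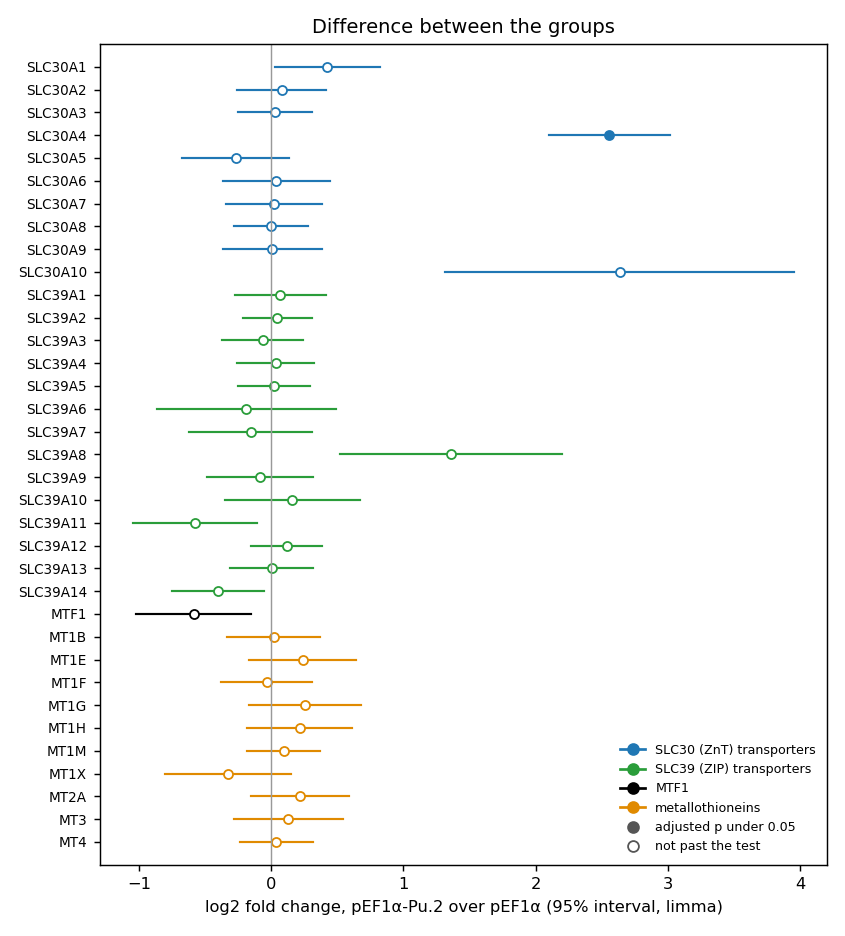
Log2 fold change of pEF1α-Pu.2 over pEF1α (horizontal axis) for 35 zinc genes, as point and 95% interval from limma with 3 lines in each group. Filled points passed the test over all genes, which here is SLC30A4 alone, at 2.56. The wide intervals of SLC30A10 (1.31 to 3.96) and SLC39A8 (0.52 to 2.20) do not reach 0.

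Among the zinc genes, the range among the 3 vector lines was over 1 in 3 genes, SLC30A10, SLC39A8 and SLC39A6, and among the pEF1α-Pu.2 lines in 0. In all 3, vector line 3 had the highest value of its group, 2.36, 1.40 and 0.96 above the mean of vector lines 1 and 2. Without vector line 3, 3 of the 35 genes were higher (0.863% of all genes) and 0 lower (1.48% of all genes) by limma at the same threshold, and the added genes were SLC30A10 and SLC39A8. Of 10 erythroid genes, ALAS2 and HBZ rose by limma in the pEF1α-Pu.2 lines as well. ALAS2, the first enzyme of heme synthesis, read 6.45, 5.60 and 6.47 in the vector clones and 8.65 to 9.55 in those with pEF1α-Pu.2. Averaged over 10 erythroid genes, the vector lines lay at 7.85 to 8.17 and the pEF1α-Pu.2 lines at 8.58 to 8.93. ALAS2 and HBZ had the largest differences, 3.01 and 1.59, whereas the list's median was 0.36 and the other genes ran from 0.10 for EPOR to 0.93 for SLC25A37. The part of erythroid state in the transporter differences was not tested.

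**Figure D4:**
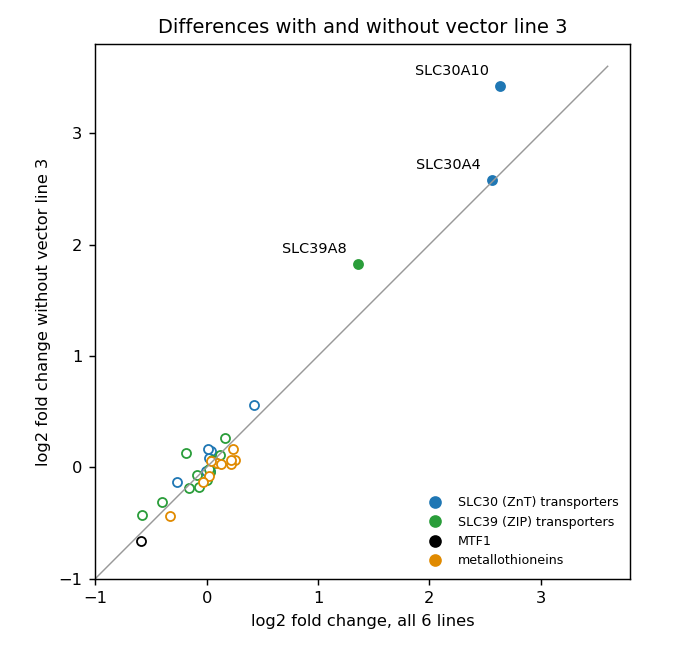
Log2 fold change of the 35 zinc genes with all 6 lines (horizontal axis) and without vector line 3 (vertical axis), with the line of equality. Filled points passed the test without vector line 3. SLC30A4 lies on the line (2.56 and 2.58), while SLC30A10 (2.64 and 3.42) and SLC39A8 (1.36 and 1.83) lie above it.

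Genes next to the 3 leading transporters were read in the order of the human gene table, with the 3 nearest tested genes on each side. None of the 18 neighbours passed limma. Around SLC30A4 on chromosome 15 (GATM, AFG2B, COXFA4L3, HMGN2P46, BLOC1S6 and SQOR), the groups overlapped in every gene. HMGN2P46, a pseudogene whose span overlaps SLC30A4 in the table, had the largest difference of the 6, 0.31 (adjusted p = 0.64 from limma). Around SLC30A10 on chromosome 1, LYPLAL1 differed by 0.44 on the log2 scale (adjusted p = 0.44) and the groups did not overlap in TGFB2 (0.31, adjusted p = 0.62). Around SLC39A8 on chromosome 4, NFKB1 differed by -0.62 on the log2 scale (adjusted p = 0.29 from limma) and MANBA by -0.58 (adjusted p = 0.15), both lower without overlap, and CISD2 beyond them by -0.05 with overlap.

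Other genes of metal handling showed no difference past the test. Of 48 measured genes in 4 lists, 0 were higher and 0 lower by limma over all genes, while an unadjusted p under 0.05 was reached by 2 higher and 2 lower ones, against 3.83% and 5.7% of all genes. In copper handling (10 genes, median log2 fold change -0.01), the copper importer SLC31A1 had the largest difference, 0.41 (adjusted p = 0.33). Vector clones had 9.64, 9.46 and 9.38 (log2), and pEF1α-Pu.2 clones had 9.76, 9.94 and 9.99, without overlap. In the transport of other divalent metals (14 genes, median 0.05), the iron exporter SLC40A1 differed by -0.89 on the log2 scale (adjusted p = 0.33).

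Among 13 zinc enzymes (median 0.005), ALAD, the zinc-dependent enzyme of heme synthesis, differed by 0.36 on the log2 scale (adjusted p = 0.39 from limma). The largest difference in size of that list was that of carbonic anhydrase CA2, -1.35 (adjusted p = 0.80), which came to 0.17 without vector line 3. It read 4.09, 3.47 and 8.35 in the vector clones and 3.85 to 4.02 in the others. CA1, the main carbonic anhydrase of red cells, was also at 8.35 in vector line 3, against 4.73 and 5.19 in its group, while pEF1α-Pu.2 lines 1, 2 and 3 had 5.66, 7.69 and 4.93. Of 11 genes that respond to heavy metals and oxidants (median -0.04), NQO1, a quinone reductase, had the largest difference, -0.82 (adjusted p = 0.13 from limma). Without vector line 3, NQO1 alone of that list passed, with -0.91 (adjusted p = 0.038). HMOX1, the heme oxygenase induced by cadmium and heme, differed by 0.05 on the log2 scale (adjusted p = 0.97).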

How the data were processed

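Total RNA of 6 monoclonal K562 lines was measured on Human Gene 1.0 ST arrays (Affymetrix), 1 per line. The authors normalized and summarized the scans with Expression Console, and the deposited values are log2 per probe set. Which algorithm and version they ran is not given in the sources used here. Array medians ran from 5.30 to 5.42.

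Probe sets were named through the platform annotation, and 19429 of 19460 with 1 symbol matched a gene ID of assembly GRCh38.p14. Probe sets with several symbols (1754) or none (12083) were not used for genes. Each of 18417 genes was represented by its brightest probe set. Groups were compared with limma 3.58.1 in R 4.3.3 (lmFit, eBayes, no trend), two-sided, with Benjamini-Hochberg adjustment over all genes and a threshold of 0.05. Of these steps, the limma fit alone was tested on simulated data. The members, lists, rule for named genes (every member, the largest differences of each list and 3 neighbours each side of members with a log2 fold change over 1) and alternatives were chosen with earlier results of these data known. CA1, EPCAM, HMOX1, LYPLAL1, TGFB2 and the MT2A probe sets were singled out after their values were seen. Alternative fits left out each line, blocked on replicate number, weighted the arrays, used trend and robust variance, or kept genes at the median level or above. Others rescaled the values (cyclic loess, median centring, quantile), averaged a gene's probe sets, or tested every probe set. Promoter sequences came from RefSeq. Figures were drawn with matplotlib 3.10.9.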

Additional observations from a re-analysis of the deposited data

How the results depend on the processing

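SLC30A4 passed limma under each of the 9 other settings and whichever line was left out, with log2 fold changes of 2.35 to 2.56 and of 2.43 to 2.78. SLC30A10 and SLC39A8 kept their direction in each and passed only without vector line 3 (3.42 and 1.83) and with array weights (3.08 and 1.56). Array weights gave vector line 2 a weight of 5.52, vector line 1 the lowest, 0.40, and vector line 3 0.48. The pEF1α-Pu.2 lines had 0.79 to 1.34. With these weights 514 genes were higher and 835 lower over all genes, and 3 zinc genes were higher and 3 lower (MTF1, SLC39A14 and MT1X). With 1 line left out, 8 to 159 genes were higher and 11 to 273 lower over all genes, with 1 to 3 zinc genes higher and 0 lower. Over all genes, 17 were higher with median centring, and 10 were higher and 16 lower with every probe set tested. MT2A turned to -0.13 with the mean of its probe sets, which takes in the dimmest. SLC39A6 ran from -0.45 to 0.13 with 1 line left out. The median of the SLC39 genes was -0.07 over the 10 genes at or above the median level. The replicate numbers did not pair the lines (correlations of deviations -0.15, -0.15 and -0.04); with the number as a block, 23 genes were higher and 41 lower, and 1 zinc gene was higher and 0 lower, SLC30A4 with an adjusted p of 0.011. The 3 scalings moved the median log2 fold change of all genes to between -0.02 and 0.002.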
